A study of Mus musculus with 24 samples.

Results

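Fibroblasts hold their matrix through integrins, and the 9 genes described here encode the subunits of the main receptors involved. Itga1, Itga2 and Itga11 encode the alpha subunits of collagen receptors. Itga5, Itga8 and Itgav encode alpha subunits that recognise the RGD motif of fibronectin, nephronectin and vitronectin, and Itgb1, Itgb3 and Itgb5 encode beta subunits that pair with these alpha chains. The genes were chosen by name, 9 of the 22367 protein-coding genes annotated on mm9, and each was read as its gene body with 10 kb on each side.

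An integrin is a heterodimer of an alpha and a beta chain that spans the cell membrane. Its outer part binds collagen, fibronectin or other matrix proteins, and its tails are linked by talin and kindlin to the actin cytoskeleton. The beta1 chain pairs with all of the collagen-binding alpha chains named above and with the alpha chains of Itga5 and Itga8, whereas the alphav chain also pairs with beta3 and beta5, and alphav integrins are known for releasing active TGF-beta from its latent complex in fibroblasts. A region of H3K4me3 (histone H3 trimethylated at lysine 4) marks the promoter of a gene in use, and H3K27ac (acetylation at lysine 27) marks active promoters and enhancers.

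ChIP-seq was performed on cultured mouse fibroblasts of 3 kinds, all immortalised with HPV E6/E7: mouse embryonic fibroblasts (MEFs) of C57BL/6 background from embryos of day 10 to 13, MMTV-CAFs from mammary tumours of MMTV-PyMT mice of FVB/NJ background, and wound-healing fibroblasts from the dorsal wounds of C57BL/6 mice at day 10. Of 24 samples, 7 were inputs and the other 17 each gave a peak list: H3K27ac and H3K4me3 in 7 kinds of cells and the homeodomain transcription factor PRRX1 in the 3 wild-type (WT) kinds. Cells named SG carried a Prrx1 deletion made by CRISPR/Cas9 with a guide RNA and were paired with cells given the control guide SgNS, while KI, a label read here as the Prrx1 mutant strain 129S-Prrx1tm1Jfm/Mmmh (crossed back to C57BL/6 per the study's methods) with lacZ placed in the homeodomain, was a second Prrx1-deficient MEF line. Whether the WT MEFs carried SgNS or came from WT embryos, and whether a line was a single clone, were not stated in the sources used here. Each group had 1 library, so the values below have no replicate error and no test, and differences between MMTV-CAFs and the other fibroblasts cannot be told apart from the difference in strain.

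The H3K27ac lists held 29325 to 61603 summits, the H3K4me3 lists 13125 to 29166 regions, and the PRRX1 lists 3048 summits in MEFs, 8000 in MMTV-CAFs and 5698 in wound-healing fibroblasts. Among the MEF lists those of KI were the weakest, with a median -log10 p of 11.9 for H3K27ac against 18.5 in WT MEFs, and of 9.93 for H3K4me3 against 28.6. As a check of the cell type, 6 to 10 of 10 fibroblast marker genes had an H3K4me3 region at a transcription start site (TSS), against 0 to 1 of 8 epithelial, 0 of 7 leukocyte and 0 to 1 of 6 endothelial markers. An H3K27ac summit lay in the window of 9 to 10 fibroblast markers, and also of 2 to 5 epithelial, 2 to 3 leukocyte and 2 to 4 endothelial markers, whose part in the integrin values was not tested. Epcam, Krt5 and Ptprc had neither mark in any list. Kdr, an endothelial receptor named after its values were seen, had a TSS region of 5528 bp in WT and 6173 bp in SG wound-healing fibroblasts against at most 1161 bp elsewhere, and its part in the values of the wound lists was not tested. Prrx1 itself kept a TSS region of 4558 to 15484 bp in the 4 mutant lists, so these marks do not show the deletion.

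All 9 integrin genes carried an H3K4me3 region at a TSS in each of the 3 WT lists. In the same lists 52.5% (MEF), 51.9% (MMTV-CAF) and 54.0% (wound) of all protein-coding genes did. The count among the integrins was 6 in KI MEFs (39.6% of all genes), 7 in SG MEFs (50.7%), 9 in SG MMTV-CAFs (52.4%) and 8 in SG wound-healing fibroblasts (54.7%). The genes without a region over a TSS in some list were Itga2, Itga11 and Itga8.

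The widths fell into a wide and a narrow class. Within each of the 7 lists the regions of Itgav, Itgb1, Itga5 and Itgb5 were wider than those of the other 5 genes. Itgav, Itgb1, Itga5 and Itgb5 had regions of 1916 to 11658 bp over the 7 lists, whereas Itga1, Itga2, Itga11, Itga8 and Itgb3 had regions of 290 to 2203 bp where they had one. Regions over 4 kb, called broad here, lay at 1 of the 9 genes in WT MEFs (4.97% of all genes) and at none in KI MEFs (1.48%), SG MEFs (3.56%) and WT wound-healing fibroblasts (4.78%). They lay at 4 in WT MMTV-CAFs (15.0%), 4 in SG MMTV-CAFs (12.7%) and 3 in SG wound-healing fibroblasts (8.50%).

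**Figure D1:**
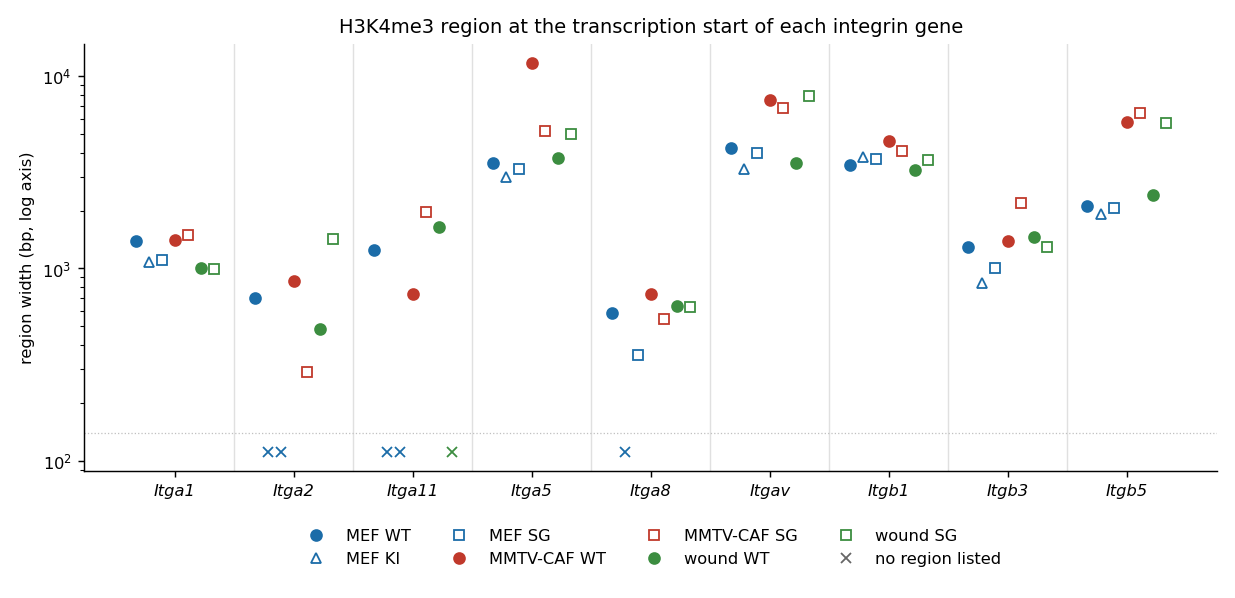
Width in bp (log axis) of the H3K4me3 region at the transcription start of each of the 9 integrin genes, 1 point per list, coloured by fibroblast type, with filled circles for WT, triangles for KI and open squares for SG. Itgav, Itgb1, Itga5 and Itgb5 sit at 1916 bp or above in every list, and crosses mark the lists without a region over a TSS at Itga2, Itga11 and Itga8.

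Among the collagen receptors, Itga1 had the steadiest region. Its width was 1389, 1084 and 1102 bp in WT, KI and SG MEFs, 1403 and 1499 bp in WT and SG MMTV-CAFs, and 1009 and 989 bp in WT and SG wound-healing fibroblasts. Fold enrichment over input there ranged from 3.07 in KI MEFs to 11.1 in SG MMTV-CAFs. Itga1 was low in width in all cell types, between the 7.14 and the 16.3 percentile of genes with a region in the same list.

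Itga2, whose product pairs with beta1 to bind collagen I, had a region of 704 bp in WT MEFs, none in KI or SG MEFs, 861 and 290 bp in WT and SG MMTV-CAFs, and 484 and 1428 bp in WT and SG wound-healing fibroblasts. The SG region was thus the smaller in MMTV-CAFs and the larger in wound-healing fibroblasts. Its fold over input never passed 5.61.

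Itga11, the collagen receptor subunit typical of mesenchymal cells, had a region of 1255 bp over its TSS in WT MEFs, 740 and 1967 bp in WT and SG MMTV-CAFs, and 1652 bp in WT wound-healing fibroblasts. In the other 3 lists no region covered the TSS, but a narrower one began close to it, of 598 bp at a distance of 72 bp in KI MEFs, of 651 bp at 38 bp in SG MEFs and of 247 bp at 368 bp in SG wound-healing fibroblasts. Hence the SG region was wider in MMTV-CAFs, and in both other types narrower and off the TSS. Fold enrichment over input was between 3.07 and 7.21 where a region covered the TSS and 2.42 to 3.72 in the other 3 lists.

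Of the RGD-binding alpha chains, Itga5, the alpha chain of the classical fibronectin receptor, had regions of 3527, 2996 and 3306 bp in WT, KI and SG MEFs, 11658 and 5201 bp in WT and SG MMTV-CAFs, and 3751 and 5005 bp in WT and SG wound-healing fibroblasts. The WT MMTV-CAF region stood apart from the other 6 and lay at the 99.3 percentile of widths in its list.

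Itga8, the nephronectin receptor subunit, had the narrowest regions of the RGD group. They measured 588 bp in WT MEFs, none in KI MEFs, 353 bp in SG MEFs, 736 and 546 bp in WT and SG MMTV-CAFs, and 641 and 629 bp in WT and SG wound-healing fibroblasts. None of them passed the 3.41 percentile of widths. Fold over input at Itga8 nevertheless reached 8.15 in SG wound-healing fibroblasts, and in WT wound-healing fibroblasts its 7.68 was at the 49.3 percentile.

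Itgav, the shared partner of the beta chains that bind vitronectin, had 4219, 3283 and 3992 bp in WT, KI and SG MEFs, 7491 and 6867 bp in WT and SG MMTV-CAFs, and 3523 and 7865 bp in WT and SG wound-healing fibroblasts. Its region was at the 86.2 percentile of widths or above in every list.

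The beta chain genes differed in the same way. Itgb1, the common partner of the collagen and fibronectin receptors, varied least of the wide class, from 3251 bp in WT wound-healing fibroblasts to 4605 bp in WT MMTV-CAFs. Itgb5 had 2101, 1916 and 2068 bp in WT, KI and SG MEFs, 5800 and 6451 bp in WT and SG MMTV-CAFs, and 2423 and 5720 bp in WT and SG wound-healing fibroblasts, so that the MEF lists and the WT wound list were low and the other 3 high. Itgb3, the beta chain of the alphavbeta3 vitronectin receptor, had 1297, 840 and 1005 bp in WT, KI and SG MEFs, 1386 and 2203 bp in WT and SG MMTV-CAFs, and 1463 and 1301 bp in WT and SG wound-healing fibroblasts.

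Base composition at the promoters followed these widths only in part. The ratio of observed to expected CpG was higher at Itgb1, Itgav and Itgb5 than at the narrow Itga1, Itga2 and Itga11. The ratios of Itga8, Itgb3 and Itga5 did not follow the widths. The window of 250 bp before to 50 bp after each gene's 5′ end was read from NCBIM37, the assembly of mm9, and the ratio of observed to expected CpG in it had a median of 0.534 over 22362 promoters. Itga8, with the lowest median H3K4me3 width (608 bp over the lists with a region), had the highest ratio of the 9 genes at 0.842. Itga5, with the widest region of all, had 0.505. In between lay Itgb1 at 0.798, Itgb3 at 0.760, Itgav at 0.708, Itgb5 at 0.619 and Itga2 at 0.518, and below them Itga1 at 0.499 and Itga11 at 0.449. The 250 bp upstream of Itga8 and of Itga5 are shown to make this contrast visible, each 5′ to 3′ on the gene's own strand (minus for both) with every CpG in capitals, at chr2:12223548-12223797 and chr15:103197195-103197444 on mm9.
Itga8: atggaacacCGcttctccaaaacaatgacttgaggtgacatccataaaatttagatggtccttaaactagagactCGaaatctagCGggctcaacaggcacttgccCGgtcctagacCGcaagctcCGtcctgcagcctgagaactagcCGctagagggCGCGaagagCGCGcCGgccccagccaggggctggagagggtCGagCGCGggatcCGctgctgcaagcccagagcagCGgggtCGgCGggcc
Itga5: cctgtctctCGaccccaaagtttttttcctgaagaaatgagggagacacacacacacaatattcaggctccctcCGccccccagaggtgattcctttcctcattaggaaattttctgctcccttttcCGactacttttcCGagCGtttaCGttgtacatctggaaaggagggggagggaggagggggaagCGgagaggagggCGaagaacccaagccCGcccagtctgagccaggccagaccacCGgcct

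Neither TAATTA, a palindrome built on the homeodomain core TAAT, nor the TATA-box word TATAAA on the gene's strand occurred in any of the 9 promoter windows. Over all promoters 4.83% held the first and 9.05% the second.

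H3K27ac was present at 8 of the 9 genes in each WT list, and the exception was Itga2, which had no H3K27ac summit in any of the 7 lists. The share of all protein-coding genes with a summit in the same window was 61.5% (MEF), 62.0% (MMTV-CAF) and 58.2% (wound). The count was 7 in KI MEFs (52.3%), 8 in SG MEFs (62.9%), 8 in SG MMTV-CAFs (64.3%) and 6 in SG wound-healing fibroblasts (63.0%). For each gene the -log10 p of its summits were summed, which gives a score of evidence for acetylation that rises with sequencing depth as well as with the mark.

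Divided by the length of the window, this score set the genes in an order that was led by the fibronectin receptor. The median over the 7 lists was 54.6 per 10 kb at Itga5, 33.9 at Itgav, 21.0 at Itgb1, 20.8 at Itgb5 and 12.0 at Itgb3. Far below came Itga11 at 3.11, Itga1 at 2.83 and Itga8 at 0.503. Every pair of neighbours in this order had ranges over the 7 lists that overlapped, except Itga1 (1.76 to 5.41) and Itga8 (0 to 1.28).

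**Figure D2:**
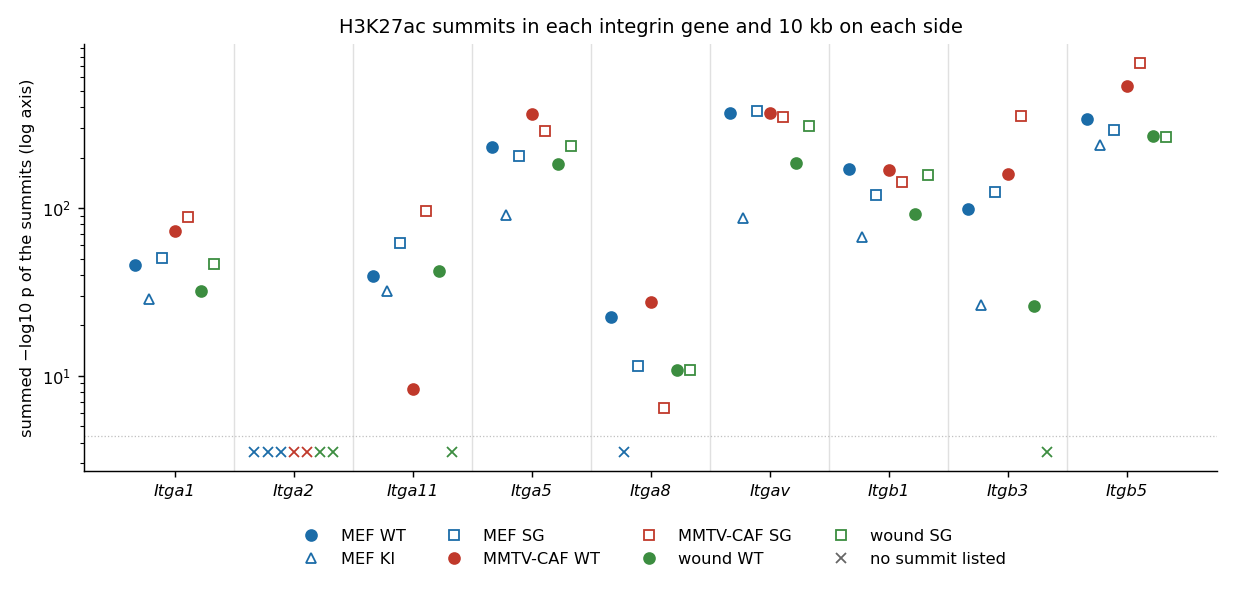
Summed -log10 p (log axis) of the H3K27ac summits in each integrin gene and 10 kb on each side, 1 point per list, coloured by fibroblast type, with filled circles for WT, triangles for KI and open squares for SG. Crosses mark lists without a summit: Itga2 in all 7, Itga8 in KI MEFs, and Itga11 and Itgb3 in SG wound-healing fibroblasts.

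Itga5 had summed scores of 232, 91.3 and 203 in WT, KI and SG MEFs, 364 and 289 in WT and SG MMTV-CAFs, and 182 and 235 in WT and SG wound-healing fibroblasts. Its KI value was the lowest, and its promoter summit 0.454 kb into the gene was listed in all 7 lists with a -log10 p of 20.3 (KI MEF) to 190 (WT MMTV-CAF).

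Itgav had 367, 87.1 and 377 in the WT, KI and SG MEF lists, 367 and 347 in WT and SG MMTV-CAFs, and 186 and 307 in WT and SG wound-healing fibroblasts. Outside the KI list and the WT wound list its scores were nearly level. A summit in its downstream flank, seen in 6 lists, lies within 1 kb of the TSS of the neighbouring gene Fam171b.

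At Itgb1 the scores were 170, 67.0 and 119 in WT, KI and SG MEFs, 169 and 142 in WT and SG MMTV-CAFs, and 92.3 and 157 in WT and SG wound-healing fibroblasts. In every list but that of KI MEFs most of the score came from a single site 0.306 kb into the gene. All 7 lists held this site, with a -log10 p of 15.2 in KI MEFs and 85.8 to 116 in the other 6.

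Itgb5 carried the most acetylated sites of the group. Its scores were 340, 236 and 291 in WT, KI and SG MEFs, 532 and 728 in WT and SG MMTV-CAFs, and 267 and 264 in WT and SG wound-healing fibroblasts, from 12 to 28 summits. Both MMTV-CAF lists were above the other 5.

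Itgb3 was the only beta chain gene without a summit in some list. It had scores of 98.5, 26.5 and 125 in WT, KI and SG MEFs, 159 and 355 in WT and SG MMTV-CAFs, 26.2 in WT wound-healing fibroblasts, and no summit in the SG wound list.

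Among the collagen receptors, Itga11 had 39.2, 32.2 and 61.5 in WT, KI and SG MEFs, 8.39 and 95.6 in WT and SG MMTV-CAFs, 41.9 in WT wound-healing fibroblasts and no summit in the SG list. Its lowest listed and its highest score were thus both in MMTV-CAFs. Itga1 had 45.8, 28.8 and 50.2 in WT, KI and SG MEFs, 72.5 and 88.6 in WT and SG MMTV-CAFs, and 31.9 and 46.5 in WT and SG wound-healing fibroblasts. The Itga1 values need care, since the site found in all 7 lists, 12.1 kb into the gene, lies at the TSS of Pelo, a gene nested inside Itga1. Near its own 5′ end Itga1 had a summit only in WT and KI MEFs and in the MMTV-CAF lists, with a -log10 p of 9.10 to 36.6. Itga8 had scores of 22.5, 0 and 11.5 in WT, KI and SG MEFs, 27.6 and 6.45 in WT and SG MMTV-CAFs, and 10.8 in both wound lists, from summits that lay 132 and 163 kb into the gene or in the upstream flank.

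PRRX1 summits were compared with these marks in the WT cells. MEFs had 4 PRRX1 summits at the integrin genes, MMTV-CAFs 11 and wound-healing fibroblasts 4, or 3.79, 10.4 and 3.79 per Mb of their windows against 1.35, 4.49 and 3.13 per Mb over the windows of all protein-coding genes. At least 1 summit lay at 3 of the 9 genes in MEFs (7.03% of all genes), at 4 in MMTV-CAFs (22.1%) and at 3 in wound-healing fibroblasts (16.8%). The deposited PRRX1 lists reach below a -log10 p of 5, the cutoff in the study's methods, and without those summits the shares of all genes were 6.56%, 19.1% and 13.7%, with 3, 4 and 3 of the 9 integrins. Itgb5 and Itgav had a summit in all 3 types, Itga2 in MEFs and wound-healing fibroblasts, and Itgb1 and Itgb3 in MMTV-CAFs. Itga1, Itga5, Itga8 and Itga11 had none in any type.

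Only an intronic position in Itgb5 was found in all 3 types. Its summits lay at 33858691 in MEFs, 33858745 in MMTV-CAFs and 33858701 in wound-healing fibroblasts on chromosome 16 of mm9, 28.9 to 29.0 kb from the 5′ end. The -log10 p was 18.7 in MEFs, where the summit ranked 307 of 3048 and was the highest of the MEF summits at the 9 genes, 5.69 in MMTV-CAFs (rank 5691 of 8000) and 10.1 in wound-healing fibroblasts (rank 858 of 5698). Within 100 bp of each summit the sequence held TAATTA 6 times, overlapping copies included. The 121 bp around the MMTV-CAF summit, which contain all 6 copies, are shown because no other site was shared by all types.

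The shared Itgb5 site had no acetylation nearby in WT cells. No WT list had an H3K27ac summit within 500 bp of the shared site, and the nearest was 11649 bp away in MEFs, 1593 bp in MMTV-CAFs and 14267 bp in wound-healing fibroblasts. The SG MMTV-CAF list held a summit 413 bp from it, with a -log10 p of 14.8 that no other list shared.

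**Figure D3:**
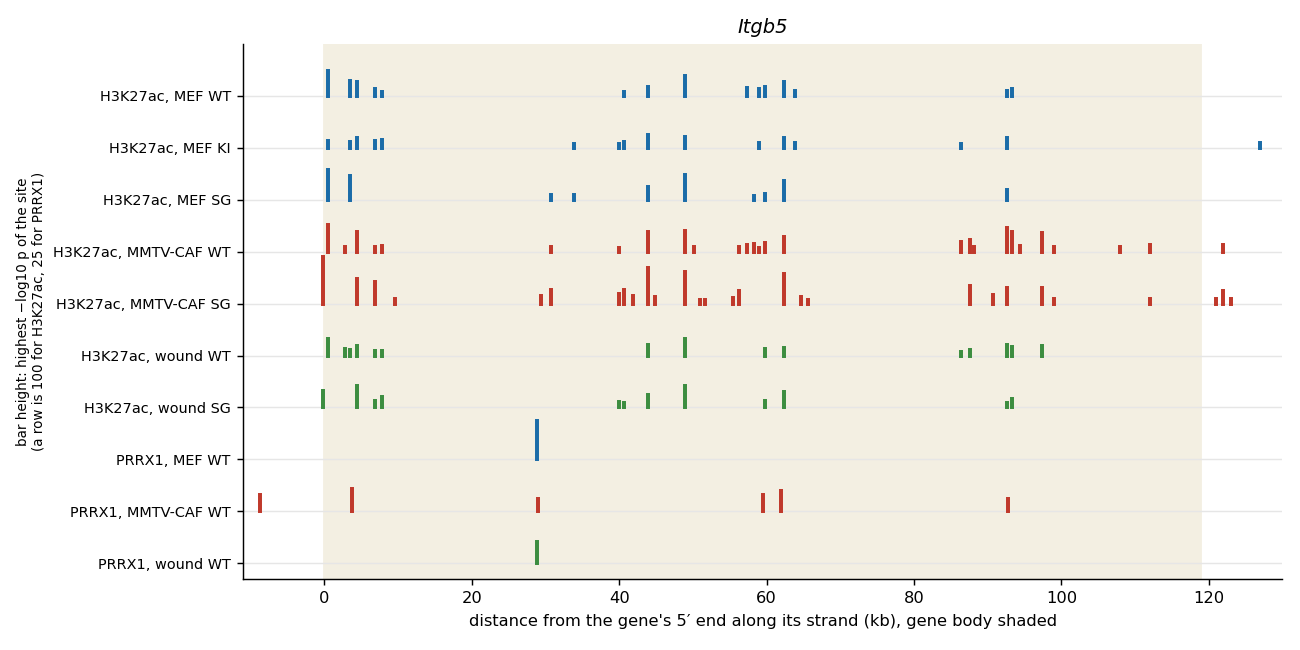
H3K27ac sites in 7 lists and PRRX1 summits in 3 WT lists along Itgb5, by distance in kb from the gene's 5′ end, with the gene body shaded and bar height giving the highest -log10 p of the site (full row 100 for H3K27ac and 25 for PRRX1). The PRRX1 summits of all 3 types coincide at 28.9 to 29.0 kb, in a stretch where only the SG MMTV-CAF list shows H3K27ac within 500 bp.

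The second site in more than 1 type lay deep in Itga2, 59.1 kb from its 5′ end, with a -log10 p of 15.7 in MEFs and 9.36 in wound-healing fibroblasts. Here TAATTA occurred 8 times in an unbroken run of TAAT units. With no acetylation anywhere in Itga2, the nearest H3K27ac summit was 54467 bp away in MEFs and 54309 bp in wound-healing fibroblasts. The third lay upstream of Itgav, at -9.37 kb from its 5′ end in MEFs (-log10 p 13.6) and at -9.49 kb in wound-healing fibroblasts (7.30), without TAATTA. The last was the Itgav promoter itself, with summits at -360 bp from the 5′ end in MMTV-CAFs (8.78) and at -325 bp in wound-healing fibroblasts (7.30), inside the H3K4me3 region of both types and with 2 copies of TAATTA.

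In MMTV-CAFs the highest summit was in Itgb3, 3.72 kb from its 5′ end, with a -log10 p of 19.4 and rank 353 of 8000. It lay inside an H3K4me3 region and 368 bp from an H3K27ac summit. The sequences below run 5′ to 3′ on the plus strand of NCBIM37 and extend 60 bp to each side of a summit, with TAATTA in capitals. They cover chr16:33858685-33858805 (Itgb5), chr13:115663106-115663226 (Itga2, MEF summit), chr2:83564134-83564254 (Itgav promoter, MMTV-CAF summit) and chr11:104473033-104473153 (Itgb3).
Itgb5: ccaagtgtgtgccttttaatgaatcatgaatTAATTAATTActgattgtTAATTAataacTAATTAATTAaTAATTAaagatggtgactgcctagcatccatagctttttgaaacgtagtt
Itga2: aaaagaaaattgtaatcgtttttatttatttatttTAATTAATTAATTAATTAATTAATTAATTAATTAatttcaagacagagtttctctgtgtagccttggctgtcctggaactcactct
Itgav: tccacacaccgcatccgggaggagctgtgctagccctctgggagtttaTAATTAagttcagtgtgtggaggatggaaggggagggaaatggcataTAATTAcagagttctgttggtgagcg
Itgb3: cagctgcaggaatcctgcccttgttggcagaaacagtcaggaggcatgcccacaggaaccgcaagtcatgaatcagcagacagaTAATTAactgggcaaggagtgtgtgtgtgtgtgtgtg

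Counted over all of their PRRX1 summits, the integrin genes held TAATTA within 100 bp at 3 of 4 summits in MEFs, 6 of 11 in MMTV-CAFs and 3 of 4 in wound-healing fibroblasts. Over all PRRX1 summits the shares were 69.1%, 35.5% and 41.9%. An H3K27ac summit lay within 500 bp at 0 of 4, 5 of 11 and 0 of 4, against 20.5%, 45.4% and 33.2% of all PRRX1 summits. The 5 were in Itgb3 and Itgb5, all in MMTV-CAFs. At Itgav some summits lay just past the 500 bp. The nearest H3K27ac summit was 527 bp away at its upstream MEF summit and 623 bp at its wound promoter summit. In MMTV-CAFs it was 599 and 758 bp away at Itgav. The other MEF and wound summits at the integrin genes lay 9790 to 54467 bp from one. An H3K4me3 region held 0 of 4, 6 of 11 and 1 of 4, against 7.02%, 44.7% and 28.2% of all PRRX1 summits.

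The WT fibroblast types were compared next, with a score or width set as different when it was past 2-fold (H3K27ac) or 1.5-fold (H3K4me3). From MEFs to MMTV-CAFs the H3K4me3 regions of Itga5 (3.31 times as wide), Itgb5 (2.76 times) and Itgav (1.78 times) were wider, 3 of 9 against 28.8% of all genes with a region in both lists. Only Itga11 was narrower, at 0.590 of its MEF width (2.10% of genes), and it was also the only integrin with a lower H3K27ac score, at 0.214 (8.19% of genes). None had a score 2-fold higher (18.4%). Divided by the median ratio over all genes, 1.32 for the widths, Itga5 and Itgb5 stayed past the fold and Itgav did not.

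From MEFs to wound-healing fibroblasts no width passed 1.5-fold in either direction, against 5.94% of genes that were narrower and 3.93% wider. The H3K27ac score was lower at Itgb3 (0.266 of the MEF value) and Itga8 (0.480), 2 of 8 against 29.3% of genes, and higher at none (3.20%). The median ratio of all genes was 0.685, and after division by it only Itgb3 stayed lower. With lists of equal size Itga8 was also within 2-fold, at a log2 ratio of -0.47 in place of -1.06.

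MMTV-CAFs and wound-healing fibroblasts were the pair of WT types with the median ratio of all genes furthest from 1, and the integrin counts lay near the shares of all genes, Itga11 apart. In wound-healing fibroblasts the regions of Itga5 (0.322), Itgb5 (0.418), Itgav (0.470) and Itga2 (0.562) were narrower than in MMTV-CAFs, 4 of 9 against 36.4% of genes, and that of Itga11 was wider (2.23 times, 2.16% of genes). The H3K27ac scores of Itgb3 (0.165), Itga8 (0.391) and Itga1 (0.440) were lower, 3 of 8 against 45.5%, and that of Itga11 was higher (4.99 times, 3.51%). With lists of equal size the scores were 2 lower (Itgb3 and Itga1) and 2 higher, since Itga8, like Itga11, was then listed in wound-healing fibroblasts alone. Without flanks the count stayed at 3 lower but 2 of the genes changed. Itgb3, Itga5 and Itgav were then lower, at log2 ratios of -2.49, -1.24 and -1.07. Itga8 (-0.66) and Itga1 (-0.87) were within 2-fold. After division by the median ratio of 0.543 only Itgb3 was past the fold among the lower scores, while Itga11 was still higher, and of the 4 narrower regions that of Itga2 was no longer past 1.5-fold after division by the median ratio of 0.725. Itga11 was hence the single integrin gene whose promoter width and acetylation were both lowest in MMTV-CAFs among the WT types.

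WT and Prrx1-mutant lists were then set side by side within each type. In KI MEFs the H3K27ac score was at most 0.5 of WT at 5 of 8 integrin genes and 2-fold higher at none, in a list where 82.2% of all genes were lower, 2.65% higher, and the median log2 ratio was -1.68. Itgav had 0.237 of its WT score, Itgb3 0.269, Itga5 0.394 and Itgb1 0.394, and Itga8 was listed at 0. The integrins with a score in both lists had a median log2 ratio of -1.34. Divided by the median ratio of all genes, 1 (Itga8) was lower and 3 were higher, namely Itga11, Itgb5 and Itga1. Itga5 and Itgb1 also turned from below to above WT, both at a log2 ratio of 0.34, so the direction of 5 genes flipped with this scaling of all genes. Without flanks the undivided log2 ratios of Itga5 and Itgb1 were -1.97 and -2.01, below the median of -1.68 that was taken with flanks. H3K4me3 regions of Itga2, Itga8 and Itga11 covered a TSS in the WT list only, 3 of 9 where 25.2% of genes lost theirs, and Itgb3 was narrower at 0.648 (23.5%), with none wider (0.524%). Divided by the median ratio of 0.802, the Itgb3 width was within 1.5-fold.

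In SG MEFs, the MEF line with the guide-made deletion, no integrin gene was past 2-fold in H3K27ac, where 3.91% of genes were lower and 19.7% higher, and 4 of 8 lay below the WT value and 4 above. Their median log2 ratio was -0.07 against 0.50 for all genes. After division by the median ratio of 1.41, Itga8 and Itgb1 were past 2-fold lower. At Itgb1 this depended on the flanks, since its undivided log2 ratio was -0.52 with them and 0.06 without. The H3K4me3 regions of Itga2 and Itga11 again covered a TSS in the WT list only (2 of 9, against 4.27% of genes), and that of Itga8 was at 0.600 of the WT width (4.88% of genes narrower), with none wider (0.596%). The KI and SG comparisons share the WT MEF lists and so are not independent.

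In MMTV-CAFs Itga11 and Itgb3 had the higher scores after deletion, and both marks were higher at both genes. The H3K27ac score of Itga11 was 11.4 times that of WT, where the WT list held 1 weak summit, and that of Itgb3 2.24 times, 2 of 8 against 16.8% of genes. On the log2 scale the Itga11 ratio was 3.51, and 2.40 without the flanks. Itga8 was lower at 0.233 (5.23%). Divided by the median ratio of 1.18, Itgb3 was no longer past 2-fold. The H3K4me3 region was 2.66 times as wide at Itga11 and 1.59 times at Itgb3 (2 of 9, 4.87% of genes), and narrower at Itga2 (0.337) and Itga5 (0.446), 2 of 9 against 5.81%.

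In wound-healing fibroblasts the same pair was lower after deletion. Itga11 with 4 WT summits and Itgb3 with 3 had no H3K27ac summit in the SG list, 2 of 8 genes against 1.92% of all genes lower by 2-fold or more, although 29.1% of genes were higher and the median log2 ratio over genes was 0.59. The WT summits were weak, with a -log10 p of at most 14.4 at Itga11 and 9.15 at Itgb3. With summits under 10 left out of both lists, Itgb3 had none in either and Itga11 remained the only one of the pair listed in WT. At Itga11 no H3K4me3 region covered the TSS either, 1 of 9 where 2.40% of genes lost theirs, although 247 bp were listed at 368 bp from it, while Itgb3 had 1301 bp against 1463 bp. In the same comparison Itga2 (2.95 times), Itgb5 (2.36 times) and Itgav (2.23 times) had wider regions, 3 of the 8 integrins with a region over a TSS in both lists, against 11.4% of genes, with none narrower (1.67%). These 3 stayed past 1.5-fold after division by the median ratio of 1.13. With regions up to 1 kb from a TSS counted, Itga11 was narrower.

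Marker genes moved in these comparisons too. From WT to SG MEFs the summed H3K27ac score went from 1584 to 1741 for fibroblast and from 164 to 383 for epithelial markers. It went from 267 to 420 for leukocyte and from 129 to 225 for endothelial markers. In KI MEFs these sums were 647, 43.8, 119 and 75.6, all below WT. From WT to SG wound-healing fibroblasts the H3K27ac score summed over the 10 fibroblast markers went from 1313 to 978. Past 2-fold 2 of them were lower (Col1a2 from 283 to 56.1 and Pdgfrb from 151 to 51.4) and 0 higher. The sums went from 112 to 147 for epithelial, 252 to 329 for leukocyte and 155 to 286 for endothelial markers. Past 2-fold 0 epithelial markers were lower and 1 higher, 0 and 1 leukocyte, and 2 and 2 endothelial. Among the endothelial markers Kdr went from 108 to 217, but Pecam1 from 29.5 to 13.4 and Vwf from 9.15 to 0. In MMTV-CAFs the fibroblast sum went from 2660 to 2481 and the leukocyte sum from 488 to 402, both with none past 2-fold. The epithelial sum went from 241 to 334, with 1 marker past 2-fold lower and 2 higher. Among these Cdh1 went from 67.1 to 19.4 and Krt8 from 58.3 to 164. The endothelial sum went from 238 to 493, with 2 lower and 3 higher. Here Tie1 went from 23.8 to 0, Tek from 11.1 to 0 and Pecam1 from 105 to 226. These markers were named after their values were seen, and their part in the integrin values was not tested.

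**Figure D4:**
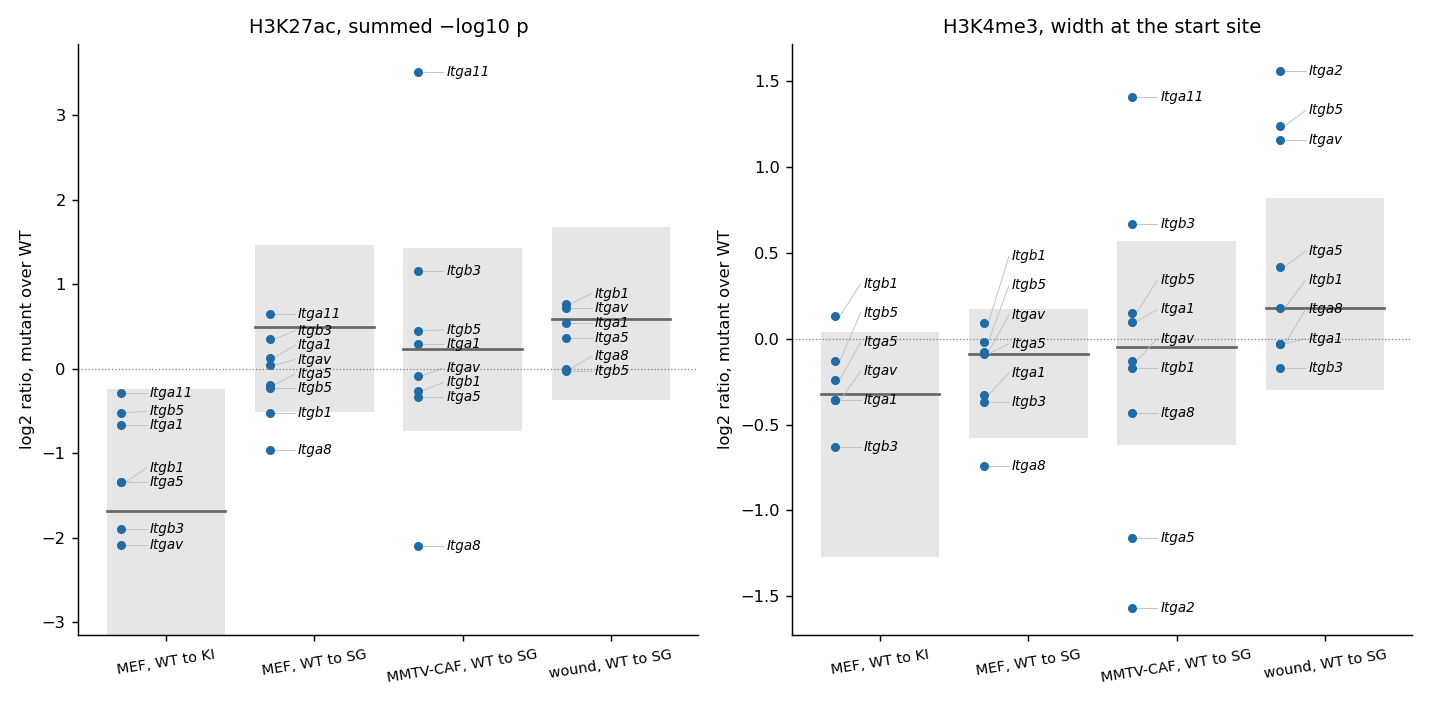
Log2 ratio of mutant over WT for the H3K27ac summed -log10 p (left) and the H3K4me3 width (right) of each integrin gene listed in both, in 4 comparisons, with the 5th to 95th percentile of all genes as a grey bar and their median as a line. Itga11 stands at 3.51 and Itga8 at -2.10 for H3K27ac in MMTV-CAFs, and Itga11 and Itgb3 have no point for H3K27ac in wound-healing fibroblasts because the SG list holds no summit there.

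Itgb3 was resolved into 19 acetylated sites, made by joining neighbouring summits of any list that lay at most 500 bp apart, so that a site can be longer. The 2 sites at 17.1 and 20.1 kb in its introns were held by the same 6 lists, all but the SG wound list. Their -log10 p was 8.35 and 8.72 in WT wound-healing fibroblasts, 25.2 and 24.8 in WT MMTV-CAFs, and 32.9 and 42.6 in SG MMTV-CAFs. The promoter site at 0.266 kb had 36.7 in SG MMTV-CAFs and was not listed in WT MMTV-CAFs. SG MMTV-CAFs alone held 3 sites in the downstream flank, 66.1 to 70.0 kb from the 5′ end. The sites within 500 bp of a PRRX1 summit of WT MMTV-CAFs were lower or not listed in SG MMTV-CAFs. They went from 11.5 to not listed at -3.60 kb, from 10.4 to 8.87 at 3.40 kb and from 11.5 to 5.06 at 4.08 kb.

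At Itga11 the 7 sites were mostly private to a list. An intronic site at 34.8 kb was held by 5 lists, with 20.9 in WT MEFs, 24.7 in SG MEFs, 8.39 and 12.1 in WT and SG MMTV-CAFs and 10.8 in WT wound-healing fibroblasts. The summits added in SG MMTV-CAFs lay elsewhere, at the promoter (18.9 and 13.5) and in the downstream flank (39.4 at 108 kb and 11.7 at 110 kb), where no other list had a site except WT wound-healing fibroblasts at the promoter (7.57).

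**Figure D5:**
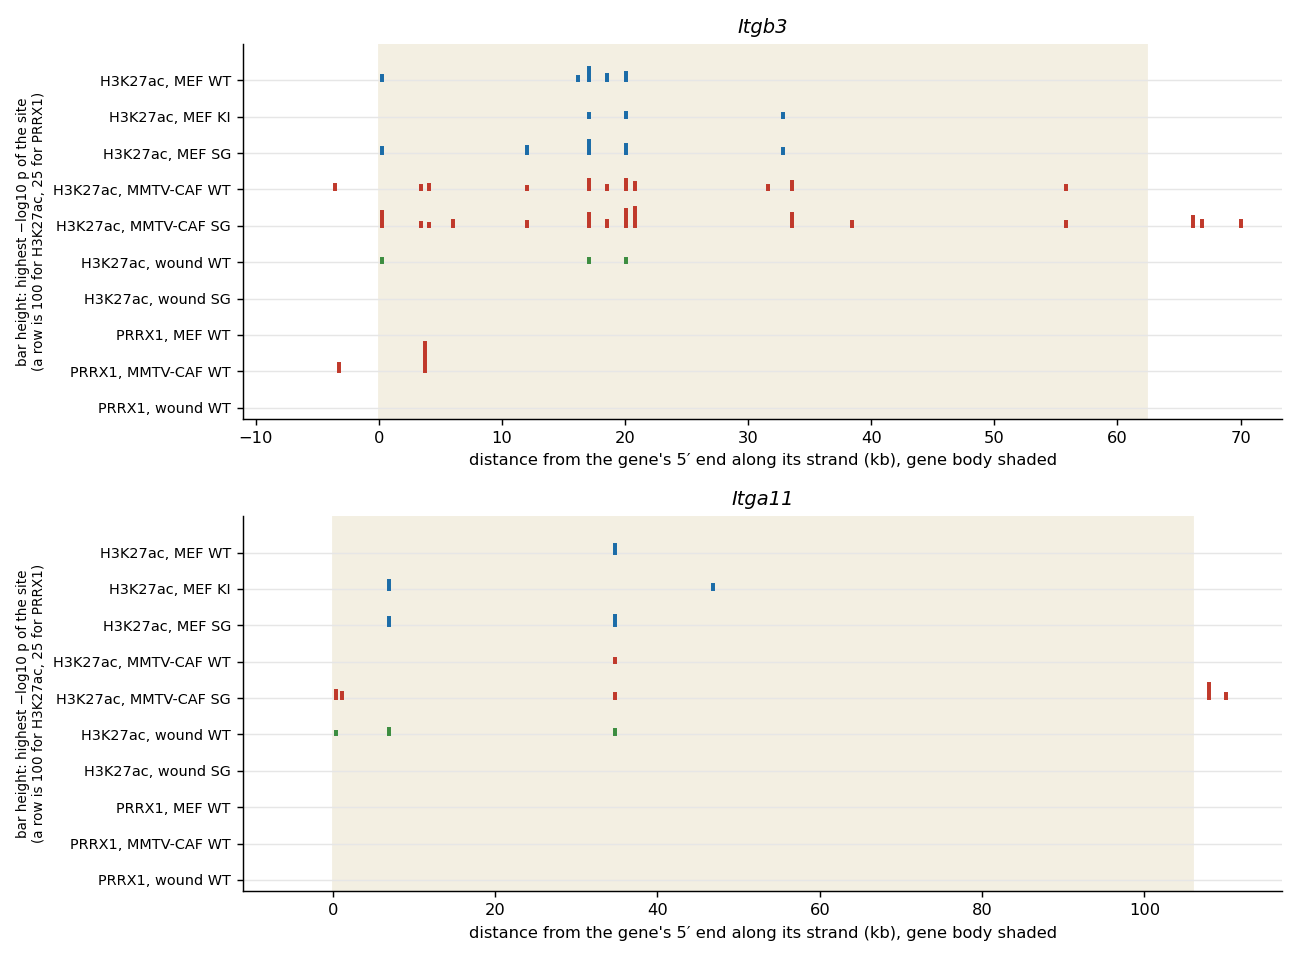
H3K27ac sites in 7 lists and PRRX1 summits in 3 WT lists along Itgb3 (upper panel) and Itga11 (lower panel), by distance in kb from the 5′ end, gene body shaded, bar height giving the highest -log10 p of the site (full row 100 for H3K27ac and 25 for PRRX1). Both genes have their most sites in SG MMTV-CAFs and none in SG wound-healing fibroblasts, and the PRRX1 summits at Itgb3 are in MMTV-CAFs.

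Over all 9 genes the lists resolved into 118 H3K27ac sites, of which 88 were intronic, 25 lay in a flank, 12 were in all 7 lists and 39 in 1 list. Itgb5 held 45 of them, 4 in all lists, and Itgav 20, also with 4 in all lists. Those shared by all lists in Itgb5 lay in its introns, at 43.9, 48.9, 62.4 and 92.6 kb, since its promoter summit moved from 0.463 kb inside the gene in 5 lists to -0.185 kb, just upstream, in the other 2, SG MMTV-CAFs and SG wound-healing fibroblasts.

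Summits in WT cells were counted as present in the mutant when its list had one within 500 bp. At the integrin genes 29 of 54 WT MEF summits were present in KI MEFs (53.7%, Wilson 95% interval 40.6 to 66.3), where 44.3% of all WT MEF summits were. The SG lists held 30 of the same 54 in MEFs (55.6%, 42.4 to 68.0, all summits 68.2%), 44 of 72 in MMTV-CAFs (61.1%, 49.6 to 71.5, all summits 63.9%) and 26 of 46 in wound-healing fibroblasts (56.5%, 42.2 to 69.8, all summits 67.7%). Of the 54 in WT MEFs, 13 were absent from both mutant MEF lists. The share of all WT MEF summits absent from both is not given here, so this count cannot be set against it. The intervals cover counting error over summits only, and they contain the share of all summits except in SG MEFs, where that share lay just above the upper bound. Itgb5 kept 14 of 18 in KI MEFs and 9 of 18 in SG MEFs.

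Large acetylated domains were sought by joining summits at the default stitching distance of the ROSE program and ranking the clusters by summed -log10 p. Clusters above the bend of the rank curve were called super-enhancers. Itga5 was under a super-enhancer in all 7 lists, ranking from 119 of 13518 clusters in KI MEFs to 482 of 17687 in SG MEFs. These ranks are not of Itga5 alone, since in every list but that of WT MMTV-CAFs the cluster ran past the window of the gene, which held 53.7% of its score in KI MEFs and 67.8% to 86.0% in the other 5. Itgav was under one in every list but those of KI MEFs and WT wound-healing fibroblasts. Itgb5 was under one in WT and KI MEFs and both MMTV-CAF lists, and Itgb1 in WT MEFs (rank 1206). Itgb3 was under one only in SG MMTV-CAFs, at rank 917 of 19061, with 91.1% of the score in its window. The counts were 4 of 9 in WT MEFs (10.4% of all genes), 2 in KI MEFs (4.06%), 2 in SG MEFs (11.4%), 3 in WT MMTV-CAFs (10.8%), 4 in SG MMTV-CAFs (10.5%), 1 in WT wound-healing fibroblasts (7.39%) and 2 in the SG list (11.9%). None of the collagen receptor genes nor Itga8 was under a super-enhancer in any list.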

How the data were processed

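Peak lists of 17 mouse ChIP-seq libraries were analysed. According to the study's methods, the authors used Trimmomatic for trimming, Bowtie for alignment to mm9, Picard for duplicates and MACS2 for peaks against the corresponding input. The methods also name IgG as a control of the PRRX1 ChIP, and which control stands behind the PRRX1 lists is not settled here. The deposited H3K27ac and PRRX1 lists give 1-bp summits with a -log10 p-value from MACS2. The deposited H3K4me3 lists hold MACS2 broad regions with an enrichment ratio to input, called fold here, a -log10 p-value and an integer score, and the score column was not used. PRRX1 ChIP was described as done in duplicate, and whether the deposited lists pool duplicates is not stated. The methods give a p cutoff equal to a -log10 p of 5 for sharp peaks. H3K27ac summits went down to 5.00 but PRRX1 summits to 3.00, and 9.88% (MEF), 17.6% (MMTV-CAF) and 22.0% (wound) of the PRRX1 summits lay under 5. Library totals are not part of these lists, so depth is unknown, and a summed -log10 p moves with depth and with the input.

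Genes and TSSs were taken from the GENCODE vM1 annotation of NCBIM37 (mm9), with a TSS at the 5′ end of any protein-coding transcript, and 0 entries lay beyond a chromosome end. An H3K4me3 region had to cover a TSS, and the widest was taken. The members and the gene lists were chosen with earlier results of these data known. All 9 integrins were named in every list. From the other lists the rule named genes with a PRRX1 summit in all 3 types or past the fold alike in all 4 mutant comparisons (at most 5 a list), integrins without H3K4me3, PRRX1 sites shared by types and the highest of each type. H3K27ac sites joined neighbouring summits of any list at most 500 bp apart, so a chain can be longer. For H3K27ac a gene listed at 0 in only one of the compared lists counted as past the fold, and for H3K4me3 the fold was read only in genes with a region in both lists. With 1 library per group no test was run. The code was tested on simulated data and used Python 3.11.15, numpy 2.4.6, scipy 1.17.1 and matplotlib 3.10.9. The alternatives were other windows and distances, stricter -log10 p, lists of equal size, division by the median ratio of all genes, other folds and other super-enhancer definitions.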

Additional observations from a re-analysis of the deposited data

Results flagged for a closer look

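Between WT and SG cells 3 integrin genes were past the fold (2 for H3K27ac, 1.5 for H3K4me3, a gene listed on one side only included) upwards in one fibroblast type and downwards in another. They were 2 of 8 genes for H3K27ac, against 3.71% of all genes listed, and 2 of 9 for H3K4me3, against 3.68%. KI MEFs are not part of these counts. With them Itgb3 also went both ways in H3K4me3 width, at 0.648 of WT in KI MEFs and 1.59 in SG MMTV-CAFs. No share of all genes that includes KI MEFs is given here. With 1 library per group, none of these differences between types was tested.

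The H3K4me3 region of Itga2, a collagen receptor subunit, was 484 bp in WT and 1428 bp in SG wound-healing fibroblasts. It was 861 bp in WT and 290 bp in SG MMTV-CAFs, and 704 bp in WT MEFs with a width of 0 (no region over a TSS) in KI and SG MEFs. Fold over input was low throughout, between 3.25 and 5.61.

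At Itga11, the mesenchymal collagen receptor subunit, the summed H3K27ac -log10 p was 8.39 in WT and 95.6 in SG MMTV-CAFs, but 41.9 in WT and 0 in SG wound-healing fibroblasts. Its H3K4me3 region was 740 bp in WT and 1967 bp in SG MMTV-CAFs. It was 1652 bp in WT and 0 (no region over a TSS) in SG wound-healing fibroblasts, and 1255 bp in WT MEFs and 0 in KI and SG MEFs. These 3 lists held a region of 247, 598 and 651 bp beside the TSS, at 368, 72 and 38 bp from it.

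Itgb3, the beta chain of a vitronectin receptor, had an H3K27ac sum of 159 in WT and 355 in SG MMTV-CAFs, and of 26.2 in WT and 0 in SG wound-healing fibroblasts.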

How the results depend on the processing

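No paired analysis was possible because each group has 1 library and the labels give no replicate numbers. Of 127 alternatives to 44 counts and shares, 94 stayed within 1.5 times the count (or within the interval of the share) and 33 moved, and the cause was not tested. Counts past the fold add both directions here, so a count that stayed can hide a change of direction. For H3K27ac in KI MEFs, division by the median ratio turned 5 lower and 0 higher into 1 lower and 3 higher. With lists of equal size, 3 lower and 1 higher from MMTV-CAFs to wound-healing fibroblasts became 2 and 2. Both were counted among the 94. With a -log10 p of at least 10, genes with a TSS region numbered 4 in SG MEFs and 5 in SG wound-healing fibroblasts, PRRX1 summits 3 in MMTV-CAFs and 1 in wound-healing fibroblasts, and genes past the fold for H3K27ac 1 in wound-healing fibroblasts after deletion. Without flanks, PRRX1 summits numbered 7 in MMTV-CAFs and 2 in wound-healing fibroblasts, and genes past the fold from MEFs to MMTV-CAFs for H3K27ac 2. With regions up to 1 kb from a TSS, 2 widths were past the fold in KI MEFs and 2 in SG MEFs. Divided by the median ratio, the counts were 0 widths in KI MEFs, 2 H3K27ac scores in SG MEFs, 1 from MEFs to wound-healing fibroblasts and 2 from MMTV-CAFs to wound-healing fibroblasts. Lists of equal size left 1 from MEFs to wound-healing fibroblasts. At a fold of 1.5 the H3K27ac counts were 2 in SG MEFs, 4 in SG wound-healing fibroblasts, 5 from MEFs to MMTV-CAFs, 4 from MEFs to wound-healing fibroblasts and 8 from MMTV-CAFs to wound-healing fibroblasts. At a fold of 2 for widths they were 0 in KI MEFs, 0 in SG MEFs and 2 from MEFs to MMTV-CAFs. Within 1 kb, the WT summits present after deletion were 68.5% in KI MEFs, 77.8% in SG MEFs, 77.8% in SG MMTV-CAFs and 71.7% in SG wound-healing fibroblasts. Stitching within 5 kb left 1 gene under a super-enhancer in KI MEFs, 1 in SG MEFs and 2 in SG MMTV-CAFs, and the 500 top clusters left 2 in WT MEFs, 1 in SG MEFs and 2 in SG MMTV-CAFs.

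Depth is unknown, and a region or summit under the cutoff of a list is not in it. The KI lists had the lowest median -log10 p of the MEF lists. Without flanks the H3K27ac log2 ratio from WT to KI MEFs was -1.97 at Itga5 and -2.01 at Itgb1 in place of -1.34 at both, and after deletion in MMTV-CAFs 2.40 in place of 3.51 at Itga11 and -1.41 in place of -2.10 at Itga8. From MMTV-CAFs to wound-healing fibroblasts it was -0.66 in place of -1.35 at Itga8 without flanks, and -1.76 in place of -2.60 at Itgb3 with lists of equal size. From MEFs to wound-healing fibroblasts Itga8 went from -1.06 to -0.47 with lists of equal size.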

Other observations

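Of the other 17 integrin genes 8 had no H3K4me3 region at a TSS in any list, namely Itga2b, Itga10, Itgad, Itgae, Itgal, Itgam, Itgax and Itgb2, most of which encode integrins of leukocytes or platelets, and Itga10 a collagen receptor of cartilage. H3K27ac summits were still in the window of Itga2b, Itga10, Itgae and Itgb2 in all 7 lists. Itga3, Itga6 and Itgb8, by contrast, had an H3K4me3 region in all 7 lists, 2177 to 3237 bp wide at Itga3, 1027 to 2321 bp at Itga6 and 1049 to 3882 bp at Itgb8. Among the alpha chains outside the 9 genes, 4 of 12 in WT MEFs, 3 in WT MMTV-CAFs and 5 in WT wound-healing fibroblasts had one, and among the beta chains 1, 3 and 3 of 5. No other integrin gene had a PRRX1 summit in all 3 types. Against WT, H3K27ac scores past 2-fold at these alpha and beta chains together were 6 lower and 0 higher in KI MEFs (82.2% and 2.65% of all genes), 0 and 3 in SG MEFs (3.91% and 19.7%), 2 and 1 in SG MMTV-CAFs (5.23% and 16.8%), and 1 and 3 in SG wound-healing fibroblasts (1.92% and 29.1%).

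The 18 genes of the adhesion plaque, the proteins that couple integrins to actin, all had an H3K27ac summit in every list, where 52.3% to 64.3% of all genes did. Their scores were past 2-fold lower at 16 in KI MEFs, where 82.2% of all genes were lower, and past 2-fold higher at 5 in SG wound-healing fibroblasts, where 29.1% were higher, with 0 in either direction in SG MEFs and SG MMTV-CAFs. Dab2, an adaptor for integrin beta tails, was the plaque gene with PRRX1 summits in all 3 types. Its score was 177, 35.7 and 110 in WT, KI and SG MEFs, 159 and 188 in WT and SG MMTV-CAFs, and 42.0 and 135 in WT and SG wound-healing fibroblasts. Of 16 genes for integrin ligands, 7 had a PRRX1 summit in MEFs (7.03% of all genes), 10 in MMTV-CAFs (22.1%) and 11 in wound-healing fibroblasts (16.8%), with no account taken of the length of these genes. Those with one in all 3 types and the highest scores in WT MEFs were Ltbp1 (558), Fbn1 (342), Col1a1 (212), Col1a2 (144) and Tgfb1 (139), which encode the latent TGF-beta binding protein, fibrillin, the chains of collagen I and TGF-beta itself. Col1a2 had 2, 6 and 4 PRRX1 summits and Fbn1 2, 10 and 5 in MEFs, MMTV-CAFs and wound-healing fibroblasts. Ligand scores past 2-fold were 8 lower and 1 higher of 16 in KI MEFs (82.2% and 2.65% of all genes). They were 3 and 2 in SG MEFs (3.91% and 19.7%) and 2 and 3 in SG MMTV-CAFs (5.23% and 16.8%). In SG wound-healing fibroblasts they were 2 and 5 (1.92% and 29.1%). No gene of these lists was past the fold in the same direction in all 4 comparisons.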
